A study of Mus musculus with 41 samples.

Results

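The genes described here encode the enzymes that build sterols and fatty acids, the regulators of those enzymes, and the cholesterol efflux transporters. A list of 33 such genes was taken, and 1 probe set stood for each gene, namely the one with the highest mean log2(signal + 32) among those that the annotation table ties to that gene alone. Of the 33 genes, 32 had such a probe set and all 32 passed the filter on low signals, out of 11947 genes tested and 18193 genes with a probe set. They comprised 20 sterol genes, 10 fatty acid genes and 2 efflux transporters. Acat2 is not analysed here. The sterol genes and the fatty acid genes are reported apart.

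The data were 41 single-colour Affymetrix arrays of RNA from sorted B cell precursors of C57BL/6 mice, all of them Pax5 wild type and given no treatment. The common lymphoid progenitor (CLP), fraction A and fraction B had 7 arrays each, and fractions C, D, E and F had 5 each. As background, Hardy's scheme orders B cell development from pre-pro-B cells (A) through pro-B cells (B), late pro-B and large dividing pre-B cells (C) and small resting pre-B cells (D) to immature (E) and mature (F) B cells. The labels name neither the gates, the tissue, the age of the mice nor whether arrays came from separate animals, so a p-value here speaks only to variation between the samples at hand, and that variation may be technical.

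As background, cells make cholesterol from acetyl-CoA through mevalonate, squalene and lanosterol, and they make fatty acids from the same acetyl-CoA through malonyl-CoA. Both routes are switched on by the SREBP transcription factors, which Scap carries out of the endoplasmic reticulum when membrane sterol is low and Insig1 holds back when it is high. When sterol is plentiful, the LXR receptors instead switch on export through Abca1 and Abcg1. Dividing cells need new membrane, and in lymphocytes growth signals raise both synthetic routes.

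The 250 bases before the transcription start, taken from RefSeq on mouse build GRCm38.p6, were available for 24 of the 32 measured genes. They were searched on both strands for TCACNCCA, a core of the sterol response element that SREBPs bind, for CCAAT, the site of NF-Y, a partner of SREBPs, and for CACGTG, an E-box. TCACNCCA and CCAAT can overlap in their letters CCA, and each motif was counted on its own. Promoters of Hmgcs1 (chr13:119690101-119690350, plus strand), Srebf2 (chr15:82147019-82147268, plus strand), Cyp51 (chr5:4104698-4104947, minus strand) and Insig1 (chr5:28071162-28071411, plus strand) are shown because they differ in which motifs they hold. Each is written 5′ to 3′ on the strand of the gene, and capitals mark a match to any of the motifs, read on either strand (ATTGG is CCAAT on the other strand).
Hmgcs1: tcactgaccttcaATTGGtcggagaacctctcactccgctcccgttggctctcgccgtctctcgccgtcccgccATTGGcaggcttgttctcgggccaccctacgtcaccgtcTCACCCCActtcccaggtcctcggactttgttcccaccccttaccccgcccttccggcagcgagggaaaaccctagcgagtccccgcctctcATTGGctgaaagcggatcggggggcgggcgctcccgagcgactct
Srebf2: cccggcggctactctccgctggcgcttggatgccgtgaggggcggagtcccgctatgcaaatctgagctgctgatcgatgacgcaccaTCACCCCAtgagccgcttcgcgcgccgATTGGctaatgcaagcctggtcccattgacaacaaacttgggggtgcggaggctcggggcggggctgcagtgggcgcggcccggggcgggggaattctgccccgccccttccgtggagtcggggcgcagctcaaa
Cyp51: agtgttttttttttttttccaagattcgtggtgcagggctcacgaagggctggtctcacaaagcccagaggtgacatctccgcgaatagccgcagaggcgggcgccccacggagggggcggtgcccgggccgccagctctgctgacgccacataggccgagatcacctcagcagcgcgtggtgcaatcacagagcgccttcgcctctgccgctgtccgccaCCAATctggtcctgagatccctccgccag
Insig1: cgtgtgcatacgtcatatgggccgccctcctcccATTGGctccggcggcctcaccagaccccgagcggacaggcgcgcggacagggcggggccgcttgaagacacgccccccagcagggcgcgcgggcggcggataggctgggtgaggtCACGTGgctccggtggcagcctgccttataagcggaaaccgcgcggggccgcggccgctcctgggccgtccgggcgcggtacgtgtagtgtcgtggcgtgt

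The Hmgcs1 window held TCACNCCA with its first base 137 bases before the start, and CCAAT at 237, 176 and 45 bases before it. The Srebf2 window held TCACNCCA at 162 and CCAAT at 135 bases before the start. Cyp51 held only CCAAT, at 29 bases, and Insig1 held CCAAT at 216 and CACGTG at 101 bases. Across the measured genes, TCACNCCA lay in 3 of 24 windows (12.5%: Hmgcs1, Msmo1 and Srebf2), against 3.94% of the 9693 tested genes with a promoter. CCAAT lay in 18 of 24 windows (75.0%, against 40.1% of tested genes), and CACGTG in 7 of 24 (29.2%, against 9.9%). A match is a description of the letters and not a bound site.

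The promoters of Elovl6 (chr3:129532136-129532385, plus strand), Fads2 (chr19:10101504-10101753, minus strand) and Abca1 (chr4:53159896-53160145, minus strand) are shown because their genes had some of the widest ranges among the populations. Elovl6 and Fads2 held none of these letters in the window, and Abca1 held CACGTG at 147 bases.
Elovl6: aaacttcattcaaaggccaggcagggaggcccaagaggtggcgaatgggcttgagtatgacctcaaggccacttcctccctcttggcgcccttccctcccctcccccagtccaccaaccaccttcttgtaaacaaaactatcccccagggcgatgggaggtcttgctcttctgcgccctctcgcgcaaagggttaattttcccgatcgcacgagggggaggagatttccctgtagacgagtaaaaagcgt
Fads2: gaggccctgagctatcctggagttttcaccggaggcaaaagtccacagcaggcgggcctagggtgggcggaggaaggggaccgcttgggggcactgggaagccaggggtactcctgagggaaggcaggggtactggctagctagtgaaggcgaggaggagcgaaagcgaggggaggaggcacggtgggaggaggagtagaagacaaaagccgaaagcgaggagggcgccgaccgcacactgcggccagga
Abca1: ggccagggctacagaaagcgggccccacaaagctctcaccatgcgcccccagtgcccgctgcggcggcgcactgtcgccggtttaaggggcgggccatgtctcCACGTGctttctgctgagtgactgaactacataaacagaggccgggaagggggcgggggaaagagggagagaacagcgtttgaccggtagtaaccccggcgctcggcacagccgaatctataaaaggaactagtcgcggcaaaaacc

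Array medians ran from 69.1 to 153.1 in scaled signal units. Fraction A stood apart: the mean correlation of an A array with the others of A was 0.799 to 0.892, against at least 0.913 elsewhere, and its ratio of 3' to 5' Gapdh signal was 12.7 ± 9.91 (SD, n = 7), against 4.17 ± 0.518 in the CLP (SD, n = 7). Fraction B had the next highest ratio, 7.53 ± 2.34 (SD, n = 7), against means of 4.95 to 5.78 in C to F. Array medians were 69.7 to 92.7 in B, against at least 100.6 in the CLP and in C to F. The part of these limits in the comparisons with B was not tested. The summed signal of 6 natural killer cell markers was 37279 to 62256 in A, against 1955 to 2345 in the CLP, and the B lineage genes Ebf1 and Pax5 averaged 197 ± 173 and 122 ± 151 in A (SD, n = 7), against 3692 ± 914 and 1230 ± 473 in the CLP (SD, n = 7). Cd79a, Cd79b, Igll1 and Rag1 also had lower means in A, but Vpreb1 did not (17390 ± 21524 in A, SD, n = 7). The summed signal of 7 B lineage genes was 2412 to 70308 in A, against 31888 to 43691 in the CLP. A is therefore named by its label only. The summed signal of 9 neutrophil genes was 56170 to 78104 in C, and 1 array of E (replicate 2) reached 101465, against 8389 to 19335 in F. Vpreb1 and Igll1, parts of the surrogate light chain of pro-B and pre-B cells, were already at 12764 ± 689 and 8405 ± 1155 in the arrays labelled CLP (SD, n = 7). The means of 7 of 7 B lineage genes were above the array medians there, as they also were in A. In sorted bulk samples, fewer cells of a type and less RNA per cell cannot be told apart.

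Across the 7 populations 27 of the 32 genes differed (limma F-test with Benjamini-Hochberg adjustment over all genes tested, threshold 0.05), against 73.3% of all genes tested. These were 16 of 20 sterol genes, 9 of 10 fatty acid genes and both efflux transporters. Nsdhl, Mvk, Ebp, Sc5d and Srebf1 did not pass. The highest and lowest population means lay 1.32 log2 units apart in the median listed gene and 1.19 apart in the median of all genes tested. Single genes of the list differed widely: the means lay 7.97 log2 units apart for Scd1 (a size set in part by the 32 added, since 4 of 7 signals in A, its lowest population, were under the array medians), 4.29 for Elovl6, 4.18 for Fads1, 3.14 for Fads2, 2.81 for Sqle and 2.77 for Abca1, and 0.72 for Ebp. Among sterol genes the highest mean lay in the CLP for 9 genes and in A for 8 of 20, and the lowest lay in D, E or F for 15 of 20.

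**Figure D1:**
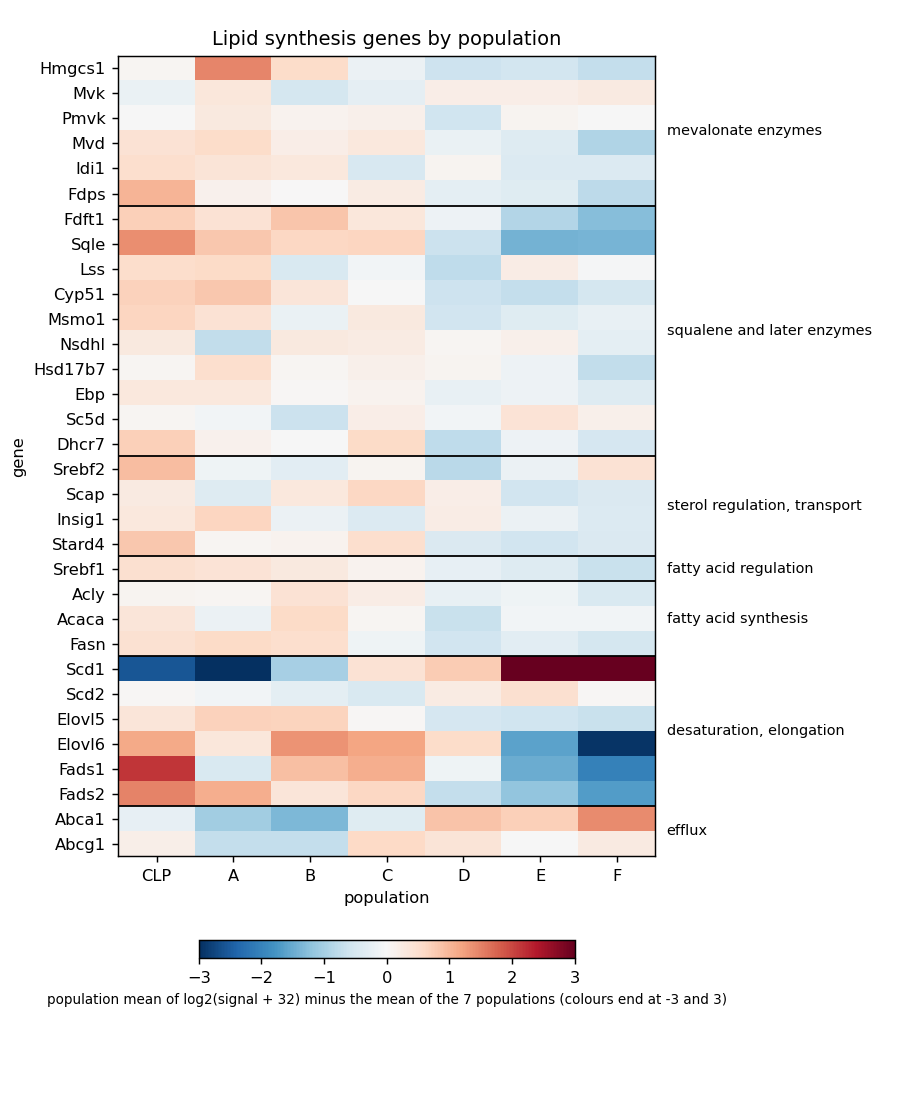
Mean log2(signal + 32) of the 32 genes (rows, grouped by role) in the 7 populations (columns, CLP to F), each row centred on its own mean over the populations; red is above and blue below that mean, and colours end at 3 log2 units either way. Most sterol rows are red or pale in the CLP, A and B and blue in D to F, Scd1 and Abca1 run the other way, and Elovl6, Fads1 and Fads2 are darkest blue in F.

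The widest contrast set mature B cells against the progenitor. In F, 13 of 20 sterol genes were lower than in the CLP and 0 were higher, with a median log2 difference of -0.79, where 41.8% of all genes tested were called, 26.6% lower and 15.2% higher, and the median of all genes was -0.15. Of the 20 sterol genes, 12 had no overlap between the 5 F arrays and the 7 CLP arrays, as had 36.3% of all genes tested. Of the 10 fatty acid genes, 6 were lower and 1 was higher in F (median -1.0), and 8 of them did not overlap. Of the efflux transporters Abca1 was higher in F and Abcg1 did not pass (0.10 ± 0.22 SE). Of these 21 calls, 19 were kept when each array was left out in turn; Ebp (adjusted p = 0.105 without F replicate 1) and Srebf1 (adjusted p = 0.0686 without F replicate 3) were lost. Summed signals of markers of other cell types were also lower in F. The summed signal of 4 plasma cell genes was 851 to 1022 in F, against 6149 to 27026 in the CLP, and of these Jchain averaged 31 ± 31 in F (SD, n = 5) and 7888 ± 7129 in the CLP (SD, n = 7). The summed signals were 8389 to 19335 in F and 14411 to 52644 in the CLP for 9 neutrophil genes, 4566 to 4922 in F and 6744 to 10776 in the CLP for 6 plasmacytoid dendritic cell genes, 1144 to 1747 in F and 4059 to 9605 in the CLP for 5 macrophage genes, and 172 to 471 in F and 622 to 4181 in the CLP for 5 T cell genes. Most of the macrophage sum in the CLP came from Lyz2, at 4256 ± 1728 there (SD, n = 7) and 923 ± 183 in F (SD, n = 5). Within these lists Ly6d, Adgre1, Cd68 and Cd8a had higher means in F, and the other genes had lower means. Ly6d averaged 2136 ± 361 in F (SD, n = 5) and 1483 ± 233 in the CLP (SD, n = 7). The part of all these markers in the differences between F and the CLP was not tested.

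**Figure D2:**
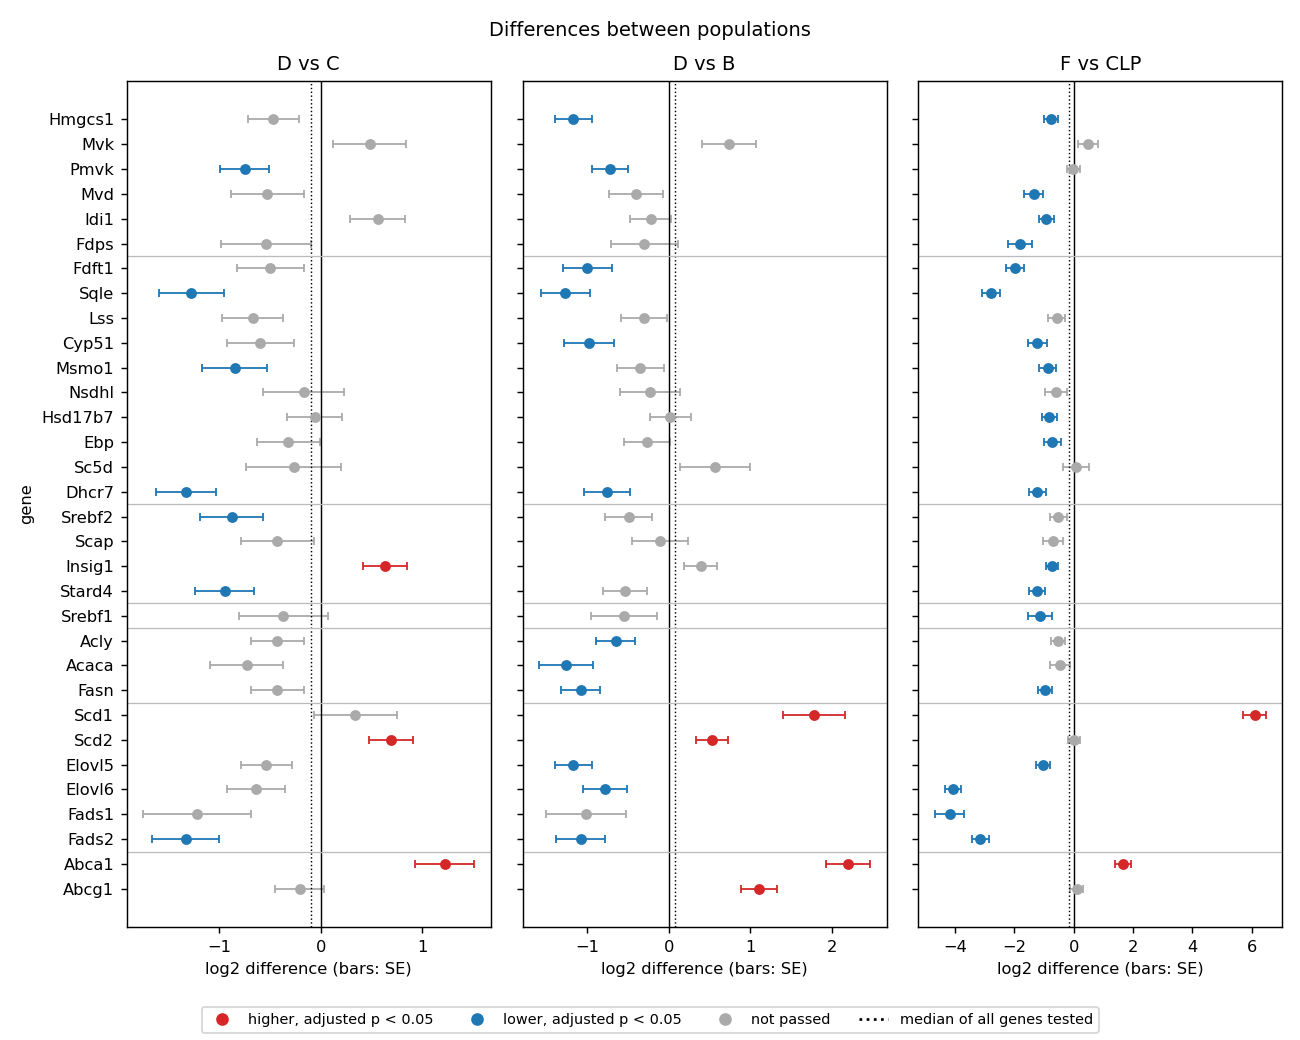
Log2 difference ± SE (limma) for the 32 genes in D against C, D against B and F against CLP, grouped by role; red points are called higher, blue points called lower, grey points did not pass, and the dotted line is the median of all genes tested. In F against CLP most points lie left of the dotted line, with Fads1 (-4.18), Elovl6 (-4.08) and Fads2 (-3.14) farthest left and Scd1 (6.10) alone on the far right.

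The mevalonate enzymes carry acetyl-CoA units to the isoprenoid precursors of sterols. Of these 6 genes, 4 fell in F relative to the CLP: Fdps, which makes farnesyl diphosphate (-1.80 ± 0.41 log2, SE), Mvd, the decarboxylase (-1.35 ± 0.33), Idi1, the isomerase (-0.92 ± 0.25), and Hmgcs1, which makes HMG-CoA (-0.77 ± 0.23), with limma adjusted p from 0.000462 to 0.00733. The kinases Mvk (0.49 log2) and Pmvk (-0.01) did not pass. Fdps read 64.8, 65.1, 113.1, 8.3 and 72.7 in F, against a lowest, median and highest of 222.1, 267.0 and 361.7 in the CLP, with no overlap. The size of the fall of Mvd depends on the 32 added to each signal, since Mvd averaged 31 ± 11 in F (SD, n = 5) and 134 ± 55 in the CLP (SD, n = 7), about at or under the array medians in both. The size for Fdps depends on it too, since its F signals were all under the array medians (117.2 to 132.9). The difference of Fdps was -2.46 with 1 added and -1.10 with a constant larger than 32. With all probe sets of a gene averaged in place of the brightest, the calls of Hmgcs1 (adjusted p = 0.0754) and Mvd (adjusted p = 0.0883) were lost.

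Hmgcs1 was the gene of this group that differed most among populations. Its signal in the CLP had a lowest, median and highest value of 3014, 3629 and 4442, in A 5895, 7382 and 27968, and in B 3701, 5104 and 7278. It was 3648, 3364, 2852, 3583 and 2640 in C, 2513, 2174, 2044, 2706 and 2132 in D, 2512, 2236, 2519, 2437 and 2548 in E, and 1620, 1755, 2882, 2888 and 2046 in F. Every A array was above every CLP array, and the arrays of D, E and F overlapped one another. Hmgcs1 was 1.41 ± 0.21 log2 units higher in A than in the CLP (limma adjusted p = 1.54e-06), in a comparison where 37% of all genes were called, 11.5% higher and 25.5% lower, and where 9.39% did not overlap. It fell by 0.92 ± 0.21 in B relative to A (adjusted p = 0.000877) and fell by 1.17 ± 0.23 in D relative to B (adjusted p = 0.000158), and no neighbours below B in the order of means (A, B, CLP, C, E, D, F) differed. These differences come from 1 of 4 probe sets of Hmgcs1. The others differed between A and the CLP by 0.01, 0.33 and -0.08, the mean of the 4 gave 0.38 (adjusted p = 0.117), and A is the population with the highest 3' to 5' ratio, whose part in the result was not tested.

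Idi1 had its lowest mean in C, with E and F about as low (1624 ± 216 in C, 1702 ± 171 in E and 1701 ± 295 in F, SD, n = 5 each). It read 1491, 1982, 1514, 1670 and 1463 in C, against a lowest, median and highest of 1608, 3165 and 4646 in B. The fall in C relative to B was 0.78 on the log2 scale (SE 0.25, adjusted p = 0.0177), where 23% of all genes were called, 14.2% higher and 8.8% lower, and the arrays overlapped because B replicates 1 and 4 (1608 and 1611) were as low as C. Idi1 in D was 2806, 2688, 2784, 2463 and 1510, above the C arrays on 4 of 5 arrays, but the difference did not pass (0.56 log2). Hmgcs1 also fell in C relative to B (-0.71 ± 0.23, adjusted p = 0.0235, with no overlap, as in 13.1% of all genes), and that call was lost without B replicate 1, C replicate 3 or C replicate 5 (adjusted p = 0.0735 without the last). The direction for B depends on the scaling: in C against B, median centring moves the median of all genes to -0.23, against 0.19 as deposited.

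Pmvk, the second kinase of the pathway, was lowest in D. It read 1026, 948.2, 957.8, 905.8 and 878.2 in D, against 1698, 1726, 1823, 1297 and 1530 in C, and the arrays did not overlap. It fell by 0.75 ± 0.24 on the log2 scale in D relative to C (limma adjusted p = 0.0212) and fell by 0.72 ± 0.22 in D relative to B (adjusted p = 0.0114), both kept without any single array. In E its mean was 1529 ± 69 (SD, n = 5), and the difference of 0.68 from D did not pass.

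The enzymes from squalene onward make up the part of the pathway that leads to sterols only. In F relative to the CLP 7 of these 10 genes fell: Sqle, Fdft1, Cyp51, Dhcr7, Msmo1, Hsd17b7 and Ebp. Lss (-0.57), Nsdhl (-0.60) and Sc5d (0.08) did not pass. In D relative to C 3 of 10 fell (Dhcr7, Sqle and Msmo1) and 0 rose, where 21.1% of all genes were called, 13.6% lower and 7.46% higher, and all 10 differences were below 0.

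Sqle, squalene epoxidase, a rate-limiting enzyme of the pathway, had the widest range of any sterol gene. Its lowest, median and highest signals were 488.3, 642.2 and 828.5 in the CLP, 177.1, 387.9 and 703.7 in A, and 148.6, 446.8 and 626.3 in B. It read 362.6, 418.6, 431.0, 342.6 and 360.0 in C, 159.6, 110.9, 182.3, 77.6 and 192.6 in D, 62.3, 109.3, 74.7, 42.8 and 55.5 in E, and 41.9, 146.5, 95.5, 31.4 and 64.9 in F. Every D, E and F array was below every C and CLP array. Sqle fell by 1.28 ± 0.32 on the log2 scale in D relative to C (limma adjusted p = 0.00323, a 2.65-fold lower mean signal). It fell by 1.27 ± 0.30 in D relative to B (adjusted p = 0.00107) and fell by 2.78 ± 0.30 in F relative to the CLP (adjusted p = 3.73e-10, 8.79-fold). Only B and D differed among neighbours in its order of means (CLP, A, C, B, D, F, E). Its signals in E and F were mostly under the array medians, and the difference between F and the CLP was -3.31 with 1 added to each signal and -1.98 with a constant larger than 32.

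Fdft1, squalene synthase, which commits farnesyl diphosphate to sterols, had lowest, median and highest signals of 900.2, 1197 and 2057 in the CLP, 376.4, 1209 and 1758 in A, and 604.3, 1762 and 2873 in B. It read 1112, 1103, 1046, 729.2 and 919.0 in C, 825.2, 456.5, 723.6, 768.2 and 684.3 in D, 314.0, 468.5, 319.8, 355.1 and 590.4 in E, and 225.1, 441.0, 213.9, 362.8 and 294.9 in F. No F array reached the lowest CLP array, and B was spread out, with replicates 5 to 7 at 604.3 to 949.3 and the others at 1762 to 2873. Fdft1 fell by 1.97 ± 0.30 on the log2 scale in F relative to the CLP (limma adjusted p = 1.04e-06) and fell by 1.0 ± 0.30 in D relative to B (adjusted p = 0.0105). Its other probe sets put the difference between F and the CLP at -2.29 and, for the dimmest, at -0.10. Over the mean of the 3 probe sets, the difference between D and B was 0.05.

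Dhcr7, the reductase of the last step to cholesterol, fell most sharply at the step to D. It read 264.7, 307.2, 582.5, 199.5 and 316.0 in D, against 727.1, 856.9, 700.5, 1100 and 863.0 in C, and the arrays did not overlap. The difference was -1.33 ± 0.30 log2 units (limma adjusted p = 0.00109). In F it read 333.4, 424.0, 491.3, 283.0 and 414.7, against a lowest, median and highest of 747.9, 929.8 and 1344 in the CLP (-1.22 ± 0.28, adjusted p = 0.000421). Its fall in D relative to B (-0.76) was lost without any of 6 single arrays, at the weakest with adjusted p = 0.122 without D replicate 4.

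The rest of this group moved less, apart from Cyp51, whose population means lay 1.53 log2 units apart, against 1.48 for Dhcr7. Hsd17b7, a sterol ketoreductase, read 409.8, 390.4, 271.3, 312.0 and 417.1 in F, all below the lowest CLP array (452.0, with a median of 684.2 and a highest of 953.7 there), a difference of -0.82 ± 0.25 (limma adjusted p = 0.00847). Cyp51, a lanosterol demethylase, averaged 619 ± 67 in F (SD, n = 5) and 1478 ± 111 in the CLP (SD, n = 7; -1.22 ± 0.31 log2, adjusted p = 0.00137), and fell in D relative to B (-0.98 ± 0.31, adjusted p = 0.0134). With its probe sets averaged both calls were lost, at -0.50 in F relative to the CLP (adjusted p = 0.0873) and -0.15 in D relative to B (adjusted p = 0.668). A second, dimmer probe set of Cyp51 rose in D relative to B (1.19, adjusted p = 0.0239), against the direction of the brightest. Msmo1, a methylsterol oxidase, fell by 0.87 ± 0.29 in F relative to the CLP and fell by 0.85 ± 0.32 in D relative to C, but the second call (adjusted p = 0.0477) was lost in 28 of 41 fits that each left out 1 array, with adjusted p up to 0.128 without D replicate 4. Lss, which closes the sterol rings, fell by 1.02 ± 0.26 in B relative to A (limma adjusted p = 0.00187) and fell by 0.98 ± 0.26 in B relative to the CLP (adjusted p = 0.00312). It was higher in E than in D (0.98 ± 0.30, a ratio of mean signals of 2, adjusted p = 0.0326) with no overlap, as in 18.5% of all genes, a call lost without any of D replicates 2, 3 and 5 or E replicates 3, 4 and 5 (adjusted p = 0.111 without D replicate 3).

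The regulators did not share 1 pattern. Srebf2 encodes the SREBP that favours sterol genes. It read 278.8, 354.4, 184.2, 281.0 and 362.0 in D, against 542.3, 489.5, 457.6, 509.2 and 820.5 in C, with no overlap (-0.88 ± 0.31 log2, limma adjusted p = 0.0381). That call was lost without any of 7 single arrays, with adjusted p = 0.118 without D replicate 3. In F it read 598.4, 745.4, 713.2, 562.2 and 1004, against a lowest, median and highest of 821.8, 955.4 and 1443 in the CLP, and the difference of -0.51 did not pass. In B its median was 464.9 (191.7 to 582.3), every array below the CLP, as in 13.3% of all genes (-1.25 ± 0.26, limma adjusted p = 0.000352).

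Insig1, whose product retains SREBPs and whose gene is itself an SREBP target, was higher in D than in C. In that comparison 4 of the 16 sterol enzymes fell and 0 rose, where 21.1% of all genes were called, 13.6% lower and 7.46% higher. Of these 4, Msmo1 lost its call in 28 of 41 fits that each left out 1 array. Insig1 read 2457, 1664, 1452, 2364 and 1902 in D, against 1377, 1279, 1187, 1319 and 1028 in C, with no overlap (0.63 ± 0.22 log2, limma adjusted p = 0.0306). The call was lost without C replicate 3 or 5 or D replicate 1 or 4, with adjusted p = 0.0935 without D replicate 1. In F relative to the CLP Insig1 fell (-0.73 ± 0.20, adjusted p = 0.00315). Stard4, a cholesterol transfer protein, read 528.0, 455.6, 529.0, 308.6 and 555.0 in D, against 912.1, 1058, 726.3, 1370 and 717.6 in C, with no overlap (-0.95 ± 0.29, adjusted p = 0.016). Without D replicate 4 that adjusted p was 0.063, and the call was also lost without C replicate 4. Scap did not pass in any of the comparisons named here, and Srebf1, the SREBP that favours fatty acid genes, passed only in F relative to the CLP (-1.13 ± 0.41, adjusted p = 0.0237).

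Averaged per array over the 20 sterol genes, the log2(signal + 32) level was 9.65 ± 0.05 in the CLP, and 9.49 ± 0.28 and 9.24 ± 0.20 in fractions A and B (SD, n = 7 each). It was 9.32 ± 0.04 in C, and 8.87 ± 0.06, 8.87 ± 0.09 and 8.74 ± 0.08 in fractions D, E and F (SD, n = 5 each). The highest D, E or F array was at 9.0 and the lowest C array at 9.29, whereas A and B arrays reached down to 9.05 and 8.94. Of single sterol genes, 6 of 20 fell and 1 rose in D relative to C, with a median of -0.51, where 21.1% of all genes were called, 13.6% lower and 7.46% higher, and the median of all genes was -0.10. In 8 of 20 the arrays did not overlap, as in 28.8% of all genes tested. The count of 7 was 3 without D replicate 4 and 4 without C replicate 4, C replicate 5 or D replicate 1, and 11 with fraction A left out of the fit, an alternative chosen after seeing the data.

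The level of 11 proliferation genes was not lower in D than in C. On the same log2 scale it averaged 11.86 ± 0.23 in the CLP, and 11.69 ± 0.12 and 12.42 ± 0.16 in fractions A and B (SD, n = 7 each). It averaged 11.68 ± 0.40 in C and 12.06 ± 0.17 in D, with overlapping arrays, and 10.77 ± 0.37 and 10.94 ± 0.32 in fractions E and F (SD, n = 5 each). The neutrophil genes, at 18276 to 24864 summed signal in D against 56170 to 78104 in C, did step between C and D. So did the macrophage sum (1298 to 2113 in D, against 6693 to 11084 in C). Most of that sum in C came from Lyz2, at 7442 ± 1655 in C and 1225 ± 201 in D (SD, n = 5 each). Sums of other markers were also lower in D without overlap. For 6 natural killer cell genes they were 848 to 1233 in D and 1875 to 7342 in C. They were 2020 to 3374 in D and 3940 to 8369 in C for 6 plasmacytoid dendritic cell genes. For 4 plasma cell genes they were 1791 to 2390 in D and 3087 to 10143 in C. Within these lists Prf1, Ly6d and Prdm1 had higher means in D, and the other genes had lower means. These averaged 862 ± 148 (Prf1), 1047 ± 337 (Ly6d) and 241 ± 34 (Prdm1) in D (SD, n = 5 each). In C the same genes averaged 827 ± 117, 748 ± 219 and 136 ± 51 (SD, n = 5 each). The T cell and erythroid sums overlapped. The part of all these markers in the sterol result was not tested. Over the 7 population means, which share their arrays with the gene levels, the proliferation level had a Pearson's r of 0.85 with Fdft1, 0.73 with Scap, 0.70 with Sqle, 0.69 with Idi1, 0.18 with Dhcr7 and -0.84 with Sc5d. Over the 41 arrays, each taken as its deviation from its population mean, r lay between -0.35 (Mvk) and 0.34 (Fdft1) for the sterol genes. In D relative to B, where the neutrophil sum in B was 2608 to 19409, 6 of 20 sterol genes fell and 0 rose. Of all genes 30.6% were called, 14.7% lower and 15.9% higher. The arrays did not overlap for 3 of 20 sterol genes and for 19.8% of all genes. Both comparisons share the D arrays.

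**Figure D3:**
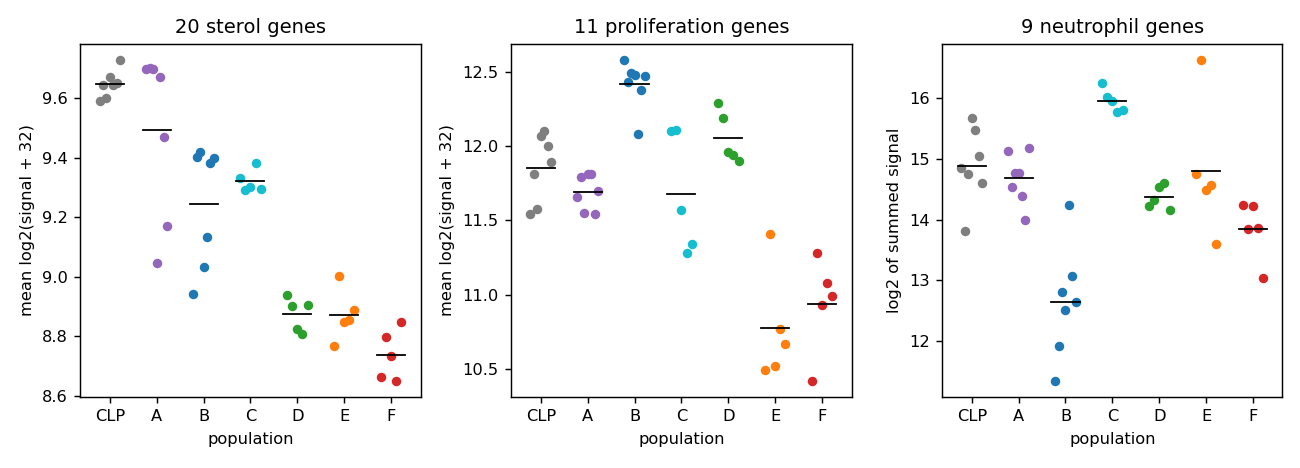
Per-array mean log2(signal + 32) of the 20 sterol genes and of 11 proliferation genes, and log2 of the summed signal of 9 neutrophil genes, in the 7 populations (CLP to F); points are arrays and lines are population means. The sterol level of every D, E and F array (8.65 to 9.0) lies below every C array (9.29 to 9.38), while the mean proliferation level is 12.06 in D and 11.68 in C, and the neutrophil sum is highest in C.

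Of the fatty acid genes, 3 make the chain itself, and their lowest means lay in D (Acaca, Fasn) or F (Acly). Acly makes cytosolic acetyl-CoA from citrate, Acaca makes malonyl-CoA and Fasn builds palmitate. All 3 fell in D relative to B: Acaca by 1.26 on the log2 scale (SE 0.33, limma adjusted p = 0.00293), Fasn by 1.08 (SE 0.24, adjusted p = 0.000521) and Acly by 0.65 (SE 0.24, adjusted p = 0.0341). Fasn read 337.9, 300.7, 189.1, 363.1 and 264.2 in D, against a lowest, median and highest of 489.6, 647.2 and 970.2 in B, with no overlap. Acaca read 452.4, 623.4, 394.9, 421.5 and 256.5 in D and 585.0, 1034 and 1466 in B, and only D replicate 2 reached the lowest B array. The call of Acly was lost without any of 8 single arrays (adjusted p = 0.0703 without D replicate 1), and a dim probe set of Acly rose by 1.07 in the same comparison (adjusted p = 0.0201). In F relative to the CLP only Fasn of the 3 passed (-0.97 ± 0.24, adjusted p = 0.000997).

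Between neighbouring populations 2 differences of these 3 genes passed, and Acaca in D relative to C (-0.73 ± 0.36, limma adjusted p = 0.138) did not. Fasn fell in C relative to B (-0.65 ± 0.24, adjusted p = 0.0423), a call lost without any of 6 single arrays and with adjusted p = 0.164 without C replicate 4. Acaca rose in B relative to A (0.77 ± 0.30, adjusted p = 0.0452), which rests on A replicate 4, at 86.4 against 592.3 to 986.2 on the other A arrays. Without that array the adjusted p was 0.195.

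The desaturases and elongases, which set chain length and double bonds, held the largest differences of the list. Scd1, a desaturase that makes oleate and palmitoleate, was the sole enzyme of the list called higher in F than in the CLP. Its lowest, median and highest signals were 116.6, 293.3 and 797.0 in the CLP, 1.7, 88.1 and 246.6 in A, and 394.0, 848.2 and 1663 in B. It read 2478, 2354, 1593, 3045 and 3483 in C, 3158, 3105, 2817, 3097 and 3753 in D, 19890, 16106, 18639, 18833 and 19605 in E, and 21837, 20652, 21280, 21648 and 22366 in F. Every E array was above every D array, and every F array above every E array, as in 6.3% of all genes, although the difference of 0.21 between F and E did not pass.

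In limma, Scd1 was 3.44 ± 0.35 log2 units higher in B than in A (adjusted p = 8.64e-11), where 31.3% of all genes were called, 16.8% higher and 14.5% lower, and where 5.11% did not overlap. Signals in A were under the array medians on 4 of 7 arrays, so the added constant sets the size against A, which was 4.75 with 1 added and 2.41 with a constant larger than 32. Scd1 was 1.44 ± 0.38 higher in C than in B (adjusted p = 0.00447), 2.54 ± 0.41 higher in E than in D (adjusted p = 1.72e-05, 5.84-fold in mean signal), and 6.10 ± 0.38 higher in F than in the CLP (adjusted p = 1.08e-16, 62.8-fold). The step from C to D gave 0.34, which did not pass. All 4 calls were kept without any single array, and a second Scd1 probe set gave 1.98, 2.99 and 5.75 for C against B, E against D and F against CLP. The call in C against B was lost with 1 added to the signals or with median centring (adjusted p up to 0.0957). Between E and D only 8.1% of all genes were called, 3.89% higher and 4.21% lower. The proliferation level (10.49 to 11.41 in E, against 11.90 to 12.29 in D) was lower in E than in D, and the neutrophil sum in E ran from 12433 to 101465. On E replicate 2, the array with the highest sum, Scd1 read 16106, the lowest of the 5 E arrays. The part of proliferation or of the neutrophil genes in the difference between E and D was not tested.

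Scd2, another mouse desaturase of this kind, differed little between the ends of the path. It read 3690, 3994, 3555, 3176 and 3652 in D, against 2033, 2201, 1960, 2726 and 2253 in C, with no overlap (0.69 ± 0.22 log2, limma adjusted p = 0.0182). In F it averaged 3146 ± 395 (SD, n = 5), and 3128 ± 352 in the CLP (SD, n = 7), a difference of 0.01 that did not pass.

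**Figure D4:**
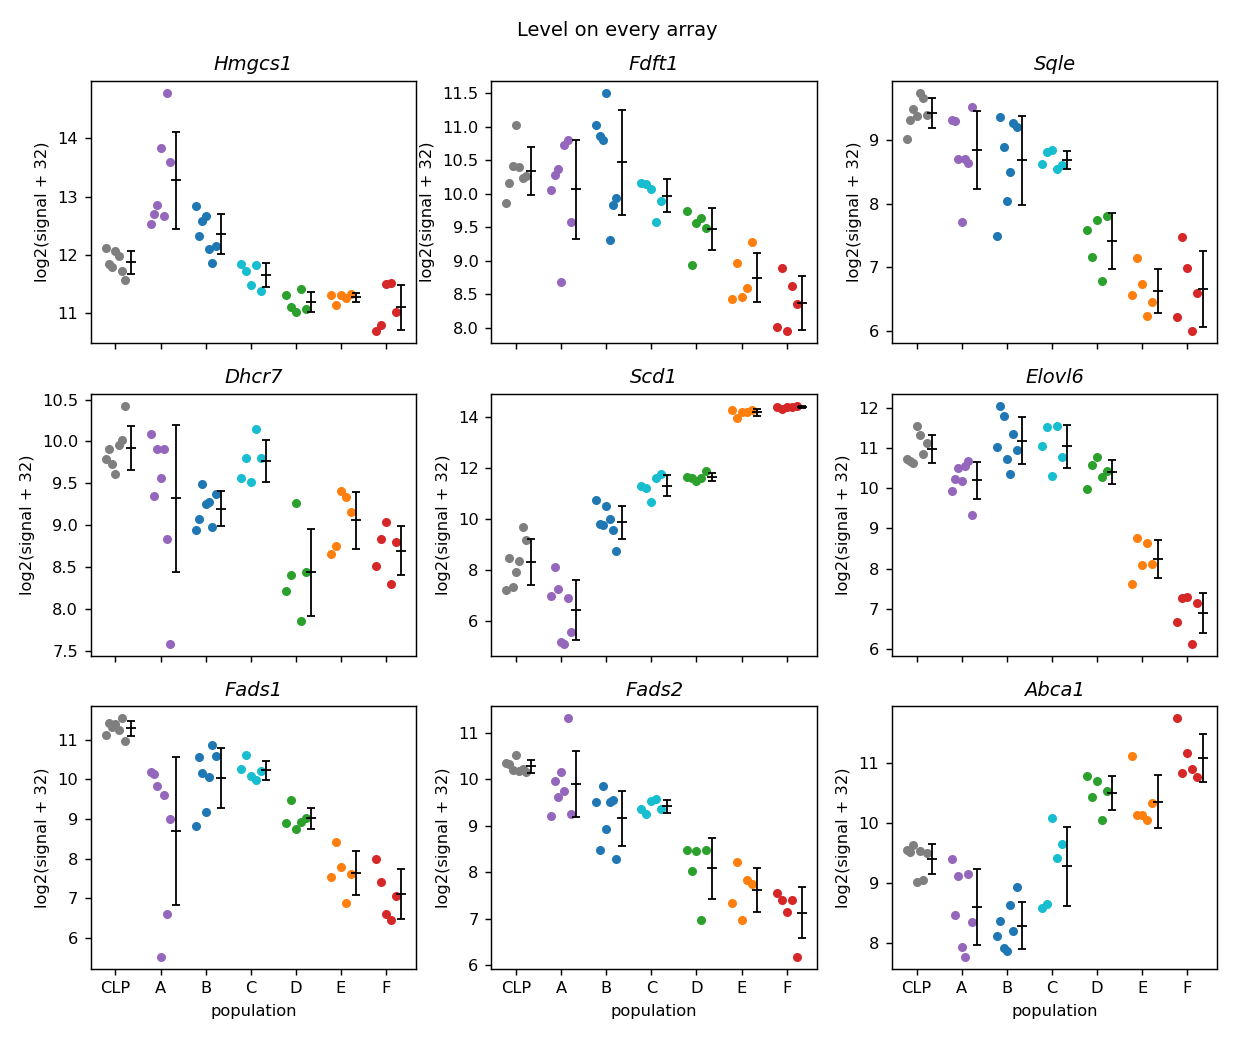
Signal of 9 genes (Hmgcs1, Fdft1, Sqle, Dhcr7, Scd1, Elovl6, Fads1, Fads2 and Abca1) on every array, on a log axis, by population (CLP to F); each point is 1 array and the bars beside them are the mean ± SD. Scd1 climbs to 16106 to 22366 in E and F, Elovl6, Fads1, Fads2 and Sqle end at their lowest in E and F, and Hmgcs1 is highest and most spread in A.

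Elovl6, which extends palmitate to stearate, the substrate of Scd1, moved the opposite way at the same step. Its lowest, median and highest signals were 1540, 1807 and 2943 in the CLP, 611.4, 1161 and 1606 in A, and 1279, 2063 and 4218 in B. It read 2094, 2924, 1232, 2976 and 1715 in C, 973.6, 1494, 1720, 1214 and 1342 in D, 163.1, 403.2, 239.6, 367.1 and 246.8 in E, and 69.7, 121.5, 124.2, 37.7 and 110.7 in F. The E arrays were all below the D arrays and the F arrays all below the E arrays. Elovl6 fell by 2.16 on the log2 scale in E relative to D (SE 0.29, limma adjusted p = 6.84e-07, 4.75-fold) and fell by 4.08 in F relative to the CLP (SE 0.27, adjusted p = 6.98e-16, 22-fold).

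Elovl6 was also the sole listed gene called between F and E (-1.35 ± 0.29, limma adjusted p = 0.0147), where 0.469% of all genes were called, 0.259% higher and 0.209% lower. That call was lost without E replicate 2, E replicate 4, F replicate 1 or F replicate 4, with adjusted p = 0.0992 without the last. Elovl6 signals in F lay near or under the array medians (117.2 to 132.9), and the size against the CLP was -4.53 with 1 added and -3.28 with a constant larger than 32. The other probe sets of Elovl6 gave -2.46 and -2.08 for F against CLP.

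Fads1 and Fads2 put the double bonds into polyunsaturated fatty acids. Fads1 had lowest, median and highest signals of 1966, 2518 and 2942 in the CLP, 14.1, 743.6 and 1128 in A, and 420.8, 1115 and 1825 in B. It read 1196, 1527, 1050, 979.8 and 1163 in C, 444.8, 678.9, 401.2, 451.4 and 488.1 in D, 154.6, 310.6, 187.9, 86.0 and 162.6 in E, and 222.7, 139.1, 64.7, 56.3 and 101.3 in F. No array outside the CLP reached the lowest CLP array, and the C, D and E arrays did not overlap. The fall in F relative to the CLP was 4.18 on the log2 scale (SE 0.49, limma adjusted p = 3.28e-09, 21.3-fold), and the difference was -4.57 with 1 added and -3.45 with a constant larger than 32. Fads1 already fell by 2.59 ± 0.45 in A relative to the CLP (adjusted p = 1.38e-05), with A replicates 4 and 6 at 14.1 and 66.2. The steps from C to D (-1.22) and from D to E (-1.37) did not pass although the arrays did not overlap.

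Fads2 had lowest, median and highest signals of 1102, 1164 and 1447 in the CLP, 556.7, 827.9 and 2506 in A, and 281.5, 693.9 and 887.1 in B. It read 622.1, 581.3, 709.5, 733.2 and 620.9 in C, 325.9, 227.2, 318.0, 93.5 and 326.2 in D, 130.4, 264.5, 92.8, 195.7 and 183.7 in E, and 155.0, 136.0, 109.7, 136.2 and 40.5 in F. The D arrays lay below all C arrays and the F arrays below all CLP arrays. In limma it fell by 1.33 on the log2 scale in D relative to C (SE 0.33, adjusted p = 0.00265), fell by 1.12 in B relative to the CLP (SE 0.28, adjusted p = 0.0021) and fell by 3.14 in F relative to the CLP (SE 0.30, adjusted p = 2.74e-11). The other probe sets gave -2.86 and -2.61 for F against CLP. Elovl5, an elongase of polyunsaturated chains, read 5134, 4581, 4600, 4221 and 5372 in D, against a lowest, median and highest of 6768, 12178 and 18943 in B, with no overlap (-1.17 ± 0.23, adjusted p = 0.000118), and fell by 1.04 ± 0.23 in F relative to the CLP (adjusted p = 0.000278).

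The fatty acid genes went in both directions in D. In D relative to C 1 of 10 rose and 1 fell (median -0.49), where 21.1% of all genes were called. That count of 2 was 4 without A replicate 4, 6 without fraction A, and 7 with array weights or with only the groups compared. In D relative to B 2 rose and 6 fell (median -0.90), where 30.6% of all genes were called, 15.9% higher and 14.7% lower. The count of 8 in D against B was 5 without B replicate 3, D replicate 1 or D replicate 4, where the calls of Elovl6 (adjusted p = 0.0834 without D replicate 1) or Fads2 (adjusted p = 0.0512 without D replicate 4) were among those lost.

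The efflux transporters were lowest in A and B, which did not differ for either beyond the threshold (0.31 for Abca1 and 0.00 for Abcg1, higher mean minus lower), and Abca1 had its highest in F. Abca1, which loads cholesterol onto apolipoproteins, had lowest, median and highest signals of 486.4, 700.8 and 758.5 in the CLP, 187.5, 321.6 and 644.0 in A, and 202.2, 264.9 and 455.7 in B. It read 351.0, 370.3, 1051, 654.7 and 769.6 in C, 1724, 1354, 1617, 1030 and 1445 in D, 2180, 1094, 1084, 1031 and 1258 in E, and 3372, 1776, 2250, 1864 and 1693 in F. Every E and F array was above every CLP array, and D overlapped C on 1 array. Abca1 was 2.20 ± 0.27 log2 units higher in D than in B (limma adjusted p = 3.87e-08), 1.22 ± 0.29 higher in D than in C (adjusted p = 0.002) and 1.67 ± 0.27 higher in F than in the CLP (adjusted p = 2.85e-06). It fell by 1.10 ± 0.25 in B relative to the CLP (adjusted p = 0.000673), where 27.7% of all genes were called, 18.9% lower and 8.77% higher. The other probe sets gave 1.37 and 1.99 for F against CLP.

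Abcg1, which passes cholesterol to mature lipoproteins, had its highest mean in C, where D did not differ from it beyond the threshold. It had lowest, median and highest signals of 694.2, 764.2 and 1009 in B, against 1519, 1476, 2904, 2291 and 2482 in C, where it was 1.32 ± 0.22 log2 units higher than in B (limma adjusted p = 2.11e-05, no overlap in spite of the spread in C). It was 1.11 ± 0.22 higher in D than in B (adjusted p = 0.000168) and fell by 0.90 ± 0.20 in B relative to the CLP (adjusted p = 0.000776), a call lost with median centring (-0.47, adjusted p = 0.0884). In D against C it did not pass (-0.21). C replicates 3 to 5 were high for both transporters. Their proliferation level was 11.57, 11.28 and 11.34, against 12.1 and 12.11 on C replicates 1 and 2. Over the 41 arrays, each taken as its deviation from its population mean, Pearson's r with the proliferation level was -0.56 for Abca1 and -0.34 for Abcg1. The part of proliferation in the efflux differences was not tested. The summed signals of the neutrophil and macrophage genes were also higher in C than in B. The macrophage sum was 6693 to 11084 in C, against 777 to 3068 in B. Most of that sum in C came from Lyz2, at 7442 ± 1655 in C (SD, n = 5) and 912 ± 663 in B (SD, n = 7). Csf1r and Cd68 also had higher means in C, but Adgre1 (74 ± 28 in C and 76 ± 57 in B) and Fcgr3 (306 ± 121 and 416 ± 272) did not. The part of these genes in the difference between C and B was not tested.

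The steps up to B depended on how the arrays were scaled. In A relative to the CLP, where 37% of all genes were called, 25.5% lower and 11.5% higher, and the median of all genes was -0.22, 1 of 20 sterol genes rose (Hmgcs1) and 3 fell: Srebf2 (-1.07 ± 0.26, limma adjusted p = 0.00143), Nsdhl (-1.02 ± 0.34, adjusted p = 0.0149) and Stard4 (-0.75 ± 0.25, adjusted p = 0.0146). The sterol median of -0.14 was 0.09 with median centring. The call of Nsdhl rests on A replicate 4, at 7.3 against a median of 281.2 in the CLP, and had an adjusted p of 0.0654 without it. The count of 4 was 7 without A replicate 1 or 5. Of the 10 fatty acid genes 3 fell: Fads1, Scd1 (-1.87 ± 0.35, adjusted p = 4.32e-05) and Elovl6 (-0.78 ± 0.25, adjusted p = 0.0121). Both efflux transporters fell as well, Abca1 with -0.80 ± 0.25 and Abcg1 with -0.89 ± 0.20. With median centring the calls of Stard4 (adjusted p = 0.121), Elovl6 (adjusted p = 0.106), Abca1 (adjusted p = 0.059) and Nsdhl were lost. That of Abca1 was also lost with quantile normalization (-0.52), those of Abca1, Stard4 and Nsdhl with only the groups compared, and those of Srebf2 (-0.41, adjusted p = 0.154) and Nsdhl with array weights. The high natural killer cell markers of A and its low B lineage genes (all tested but Vpreb1) stand beside all of these differences, and their part was not tested.

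In B relative to the CLP 8 of 20 sterol genes fell and 0 rose, where 27.7% of all genes were called, 18.9% lower and 8.77% higher. Their median was -0.32, and the median of all genes was -0.20. With median centring 3 were called and the sterol median was 0.10, so the direction of the median turned with the scaling. Srebf2 (-1.25) and Lss (-0.98) kept their calls without any single array, but with median centring that of Lss was lost (-0.56, adjusted p = 0.116) and Srebf2 was at -0.82 (adjusted p = 0.0136). Fdps, Sqle, Msmo1, Dhcr7, Insig1 and Stard4 did not, with adjusted p between 0.0675 and 0.14 for the array that mattered most to each (B replicate 1 or 4, or CLP replicate 7). The count of 8 was 3 without B replicate 1, 4 without B replicate 4, and 5 without B replicate 5 or CLP replicate 3 or 7.

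In B relative to A 1 sterol gene rose (Nsdhl) and 4 fell (Lss, Hmgcs1, Mvk and Insig1), where 31.3% of all genes were called, 16.8% higher and 14.5% lower. With only the groups compared 1 of these 5 (Insig1) was called. Nsdhl rose by 1.02 ± 0.34 (limma adjusted p = 0.0178, and 0.0717 without A replicate 4), and Mvk fell by 0.86 ± 0.30 (adjusted p = 0.0267, and 0.0786 without A replicate 6). Of the fatty acid genes 4 rose (Scd1, Fads1, Elovl6 and Acaca) and 1 fell (Fads2). The calls of Fads1 and Fads2 were lost at the weakest without A replicate 4 (adjusted p = 0.0835) and A replicate 6 (adjusted p = 0.142). The fatty acid count of 5 was 2 without A replicate 6 and 3 without A replicate 4 or B replicate 2, 4 or 7, and the sterol count of 5 was 3 without B replicate 4.

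Further genes of the pathways were taken from lists outside the 33. Of 19 other sterol genes, 12 had a named probe set and 11 were tested, and in F relative to the CLP 2 of these rose and 1 fell (median -0.02). Of all genes tested 41.8% were called in that comparison, 26.6% lower and 15.2% higher, and their median was -0.15. Mylip, which marks lipoprotein receptors for degradation and is an LXR target, rose by 1.11 ± 0.31 log2 units in F relative to the CLP (limma adjusted p = 0.00366) and rose by 2.09 ± 0.31 in D relative to B (adjusted p = 1.83e-06). Npc2, which carries cholesterol out of lysosomes, fell by 0.84 ± 0.16 in F relative to the CLP (adjusted p = 3.23e-05), and Ggps1, which makes geranylgeranyl diphosphate for protein prenylation, was 0.82 ± 0.24 higher there (adjusted p = 0.00558). Of 20 other fatty acid genes, 16 were tested, and in F relative to the CLP 1 rose and 9 fell (median -0.78), beside the same shares of all genes. Slc25a1, which exports citrate from mitochondria for Acly, fell by 2.05 ± 0.35 (limma adjusted p = 6.43e-06). Tecr, of the chain elongation cycle, fell by 1.97 ± 0.23 (adjusted p = 3.77e-09). Elovl7, an elongase, fell by 2.13 ± 0.54 (adjusted p = 0.00152). Cpt1a, which admits fatty acids to mitochondria for oxidation, was 0.88 ± 0.20 higher (adjusted p = 0.000448). Elovl7 (8 ± 7) and Slc25a1 (52 ± 37) in F (SD, n = 5) were under the array medians, so their sizes depend on the 32 added.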

How the data were processed

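The values were MAS5 intensity signals of 41 arrays, per the submitters' processing notes (no version named); RNA was extracted with Arcturus PicoPure and amplified with the Nugen Ovation Pico system, per the labels' protocols. In the deposited intensity values each array had a mean of 500 once 2% of probe sets was trimmed at either end, so scaling had been done. No genome build of the arrays was given in the sources used here. Of 45101 probe sets, 34945 had 1 gene in the annotation table, 932 had several, 9160 were not listed and 64 were controls. Populations and replicate numbers came from the sample titles. Each gene was represented by its brightest probe set, and 11947 genes with 5 or more arrays at or above the array median were tested on log2(signal + 32), which understates the change of low genes. All 41 arrays entered 1 fit of 7 means (limma 3.58.1 in R 4.3.3, eBayes with trend and robust, statmod 1.5.0, data.table, version 1.17.8), with Benjamini-Hochberg adjustment over all genes tested and a threshold of 0.05. The script was tested on simulated data. The number of arrays limits the precision. All listed genes with a probe set could be named, those called first. The listed genes and the other lists were chosen with earlier results of these data known. Alternatives were the added constant, the filter, median centring, quantile normalization, all probe sets of a gene averaged, every probe set, a replicate block, array weights, eBayes without trend and robust, only the groups compared, each array left out, and, chosen after seeing the data, fraction A left out. Sequences are from RefSeq (GRCm38.p6).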

Additional observations from a re-analysis of the deposited data

Results flagged for a closer look

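In 224 sets of arrays (32 genes in 7 populations) a single array stood apart from the rest of its population in 11, where chance gives about 11.2 at 1 in 20. Low arrays were Pmvk in A replicate 7 (580.6, against 1620.5 to 3389.9 on the other arrays of A), Fasn in A replicate 7 (298.8, against 619.8 to 966.3), Sc5d in A replicate 4 (8.4, against 184.1 to 739.1), Acaca in A replicate 4 (86.4, against 592.3 to 986.2), Fdps in B replicate 4 (14.5, against 112.3 to 220.5) and Idi1 in D replicate 5 (1509.7, against 2462.5 to 2806.4). High arrays were Mvd in D replicate 2 (108.8, against 51.6 to 65.1), Srebf2 in C replicate 5 (820.5, against 457.6 to 542.3), Scap in D replicate 5 (965.1, against 572.8 to 639.5), Abca1 in E replicate 1 (2180.2, against 1031.1 to 1258.0) and Abcg1 in E replicate 1 (2209.3, against 1038.2 to 1251.5). Of the 11, 4 were in A and 3 in D. Both efflux transporters stood apart on the same array of E.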

How the results depend on the processing

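Of 90 calls of single genes, 61 were kept without every single array and 43 under every alternative as well. In F against CLP these were 19 and 15 of 21. Directions reversed in 4 cases: with all probe sets of a gene averaged, Fads2 in B against A (0.17), Hmgcs1 in C against B (0.00) and Fdft1 in D against B (0.05), and with array weights Nsdhl in B against A (-0.16). The added constant decides sizes near the array medians, and the cause of the other shifts was not tested. Median centring moved the median of all genes from -0.20 to 0.22 in B against CLP, 0.19 to -0.23 in C against B, 0.08 to -0.33 in D against B, -0.22 to 0.01 in A against CLP and 0.02 to 0.21 in B against A. The split of all called genes into higher and lower went to 2617 and 871 (1048 and 2260 as deposited) in B against CLP, 544 and 2305 (1695 and 1051) in C against B, 699 and 3506 (1900 and 1761; 1406 and 2116 with quantile normalization) in D against B, 2071 and 1776 (1377 and 3047) in A against CLP, and 2937 and 1137 (2012 and 1729) in B against A.

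The following counts are of called genes and the medians are log2 differences. With a constant larger than 32 added, F against E had 0 fatty acid genes. Without the filter, the fatty acid counts were 3 in B against A and 1 in C against B. With quantile normalization, the sterol medians were 0.05 in A against CLP, -0.14 in C against B and -0.68 in D against B, the sterol counts 2 in B against CLP and 2 in E against D, and the fatty acid count 4 in D against C. With median centring, the sterol and fatty acid medians were 0.09 and -0.01 in A against CLP, 0.10 and 0.56 in B against CLP, -0.04 and 0.36 in B against A, -0.32 and -0.59 in C against B, and -0.74 and -1.32 in D against B, and the sterol counts were 3 in B against CLP, 5 in C against B and 0 in E against D. With all probe sets of a gene averaged, the fatty acid counts were 6 in A against CLP, 3 in B against A, 4 in D against C and 0 in F against E, the fatty acid medians -0.48 in A against CLP, -0.11 in B against CLP and -0.64 in D against B, and the sterol medians -0.23 in D against C, -0.18 in D against B and -0.60 in F against CLP. With array weights, the sterol counts were 5 in C against B, 12 in D against C, 12 in D against B, 8 in E against D and 1 in F against E, the fatty acid counts 2 in B against A, 7 in D against C, 4 in E against D and 2 in F against E, the sterol medians 0.01 in A against CLP and -0.58 in D against B, and the fatty acid median -1.09 in D against B. With only the groups compared, the sterol counts were 2 in A against CLP, 1 in B against A, 12 in D against C, 7 in E against D and 1 in F against E, and the fatty acid counts 2 in B against A, 7 in D against C, 4 in E against D and 3 in F against E. Without fraction A, the sterol counts were 5 in C against B, 11 in D against C and 4 in E against D, and the fatty acid count was 6 in D against C.

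Leaving out each array gave sterol counts of 3 to 7 in A against CLP (7 without A replicate 1 or 5), 3 to 9 in B against CLP (5 or fewer without CLP replicate 3 or 7 or B replicate 1, 4 or 5), 3 to 6 in B against A (3 without B replicate 4), 1 to 3 in C against B (1 without B replicate 1 or C replicate 3 or 5), 3 to 7 in D against C (4 or fewer without C replicate 4 or 5 or D replicate 1 or 4), 0 to 2 in E against D (0 without D replicate 2, 3 or 5 or E replicate 3, 4 or 5, and 2 without A replicate 6 or 7) and 12 to 14 in F against CLP. Fatty acid counts were 2 to 5 in B against A (3 or fewer without A replicate 4 or 6 or B replicate 2, 4 or 7), 1 to 3 in C against B (1 without B replicate 1, 2 or 3 or C replicate 5), 2 to 4 in D against C (4 without A replicate 4), 5 to 9 in D against B (5 without B replicate 3 or D replicate 1 or 4) and 0 to 1 in F against E (0 without E replicate 2 or 4 or F replicate 1 or 4). The sterol median in B against A was -0.38 to -0.15, and -0.38 without A replicate 7. The F-test called 25 to 30 genes.

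Replicate numbers did not pair the arrays: 111 pairs of arrays with the same number had a mean correlation of deviations of 0.002 (-0.25 to 0.22), and 8 of 41 arrays correlated best with their own number. With the replicate number as a block, F against CLP had 12 sterol genes and 8 fatty acid genes called, with medians of -0.77 and -1.02, D against C had 7 and 2, and the F-test called 26. Of the single calls, those of Elovl5 in C against B and Ebp in F against CLP were lost under the block.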
